A study of Mus musculus with 6 samples.

Results

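Histones and the proteins that make histone messages and carry histones to DNA were followed in mouse embryonic stem cells given a control siRNA or an siRNA pool against pyruvate kinase M (PKM). Of 6532 genes in the table, 35 were taken by symbol alone: they were 16 replication-dependent histone genes (symbols starting Hist1h to Hist4h), 5 histone variant genes (H2afv, H2afx, H2afy, H2afz and H3f3b) and 14 histone supply genes. The supply genes were 3 factors of histone message synthesis and processing (Slbp, Npat and Casp8ap2) and 11 histone chaperones (Nasp, Asf1a, Asf1b, Chaf1a, Chaf1b, Hira, Hirip3, Supt16h, Ssrp1, Nap1l1 and Nap1l4). Lsm10 and Lsm11, which were also sought, are not in the table and are not analysed here, like the many histone genes without a row. The 16 replication-dependent genes encode linker histone H1 (5 genes), H2A (2), H2B (2), H3 (1) and H4 (6). 11 of them lie on mouse chromosome 13, 3 on chromosome 3, 1 on chromosome 11 and 1 on chromosome 6. Relative to the median gene, most replication-dependent genes had lower reads in the siPKM libraries than in the control libraries, in messenger RNA and in ribosome footprints.

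All cells were of E14, an established mouse embryonic stem cell line, kept on gelatin with serum and LIF. Wild-type E14 cells had 36 h of a non-targeting siRNA pool (siCtrl) or of an siRNA pool against PKM (siPKM), each at 20 nM, and were replated 16 h before harvest. Each siRNA gave 1 RNA library, from total RNA depleted of rRNA, and 1 ribosome footprint (RPF) library, with RNase A and T1 digestion in the RPF arm. Cycloheximide at 100 µg/ml for 2 min is given for the RNA and the RPF libraries alike. A further 2 libraries were FAST-iCLIP replicates from E14 cells carrying FLAG- and HA-tagged PKM2, crosslinked at 0.35 J per cm2, for which the labels name no siRNA, and no input or mock CLIP is among the samples. The libraries held 12111993 (siCtrl RNA), 10349212 (siPKM RNA), 15175242 (siCtrl RPF) and 12545485 (siPKM RPF) coding sequence (CDS) reads, and 677534 and 670508 CLIP stops. The target, listed as Pkm2, had 5024 and 1582 CPM (CDS reads scaled to the library's total, per 1000000) in siCtrl and siPKM RNA and 5311 and 1683 in RPF. Of 16 stem cell markers 14 were in the table, among them Pou5f1 and Sox2, with a summed level of 5514 CPM in siCtrl RNA and 5453 in siPKM RNA. Single markers within this sum differed in both directions. In siCtrl and siPKM RNA, Esrrb had 154 and 233 CPM and Tet1 had 180 and 262, while Klf2 had 58 and 42 and Zfp42 had 1052 and 891. Markers of other lineages were 3 of 7 for trophoblast (78 and 84 CPM summed in siCtrl and siPKM RNA), 2 of 7 for primitive endoderm (206 and 365), 1 of 5 for fibroblasts (229 and 304) and 3 of 4 for neural cells (177 and 125), the others having no row. Most of the primitive endoderm sum was Lama1, with 191 and 348 CPM. The trophoblast sum joined Krt8 (22 and 34 CPM) with Tcfap2c (38 and 26 CPM), which differed in opposite directions. The part of those marker differences in the histone results was not tested. With 1 library per siRNA and kind, no test of the knockdown was possible, and no difference between siCtrl and siPKM has a replicate check.

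Replication-dependent histones package newly copied DNA, and their genes sit in clusters and are transcribed in S phase. Their messages have no introns and end in a stem loop, without a poly(A) tail. Npat drives their transcription in nuclear bodies at the clusters, Casp8ap2 (also called FLASH) helps cut the 3' end, and Slbp binds the stem loop from processing through translation to decay. Variant histones are made through the cell cycle, most of them from polyadenylated messages, and replace the canonical kind at particular places. Chaperones carry the new proteins to DNA: Nasp, Asf1a, Asf1b and the CAF-1 subunits Chaf1a and Chaf1b handle H3 and H4, Hira deposits H3.3, and Supt16h with Ssrp1 (together FACT) and the Nap1 proteins handle H2A and H2B.

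Ratios are log2 of siPKM over siCtrl CDS reads, leaving out the first 15 and the last 5 codons, scaled to the library's sum and set to 0 at the median gene. CPM values are not centred in this way. Intervals are 95% intervals of the read counts and cover counting error only. A gene was counted as higher or lower when it lay at least 1.5-fold from the median gene. Levels of different genes are not compared, because transcript lengths are not in the table.

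In RNA, 15 of the 16 replication-dependent genes lay below the median gene (50% of all genes do, by construction), with a median of -0.46. 5 were at least 1.5-fold lower (Hist3h2a, Hist1h1e, Hist1h1b, Hist2h2bb and Hist1h1a) against 1.24% of all genes, and 0 were at least 1.5-fold higher against 2.88%. In RPF, 14 of the 16 lay below the median gene (50% of all), with a median of -0.45. 6 were at least 1.5-fold lower (Hist1h4i, Hist3h2a, Hist1h1e, Hist1h1b, Hist1h3c and Hist1h1a) against 1.53% of all genes, and 0 were at least 1.5-fold higher against 2.66%. Both shares lie above the background for lower genes. Summed over the 16 genes, their share of CDS reads was 0.685% in siCtrl RNA (exact 95% Clopper-Pearson interval 0.680 to 0.689%) and 0.477% in siPKM RNA (0.473 to 0.481%). Footprints gave 0.593% (0.590 to 0.597%) for siCtrl against 0.426% (0.422 to 0.429%) for siPKM. The ratio of these sums was -0.57 in RNA and -0.50 in RPF. Fewer cells in S phase and less histone RNA in each such cell cannot be told apart in these bulk libraries.

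**Figure D1:**
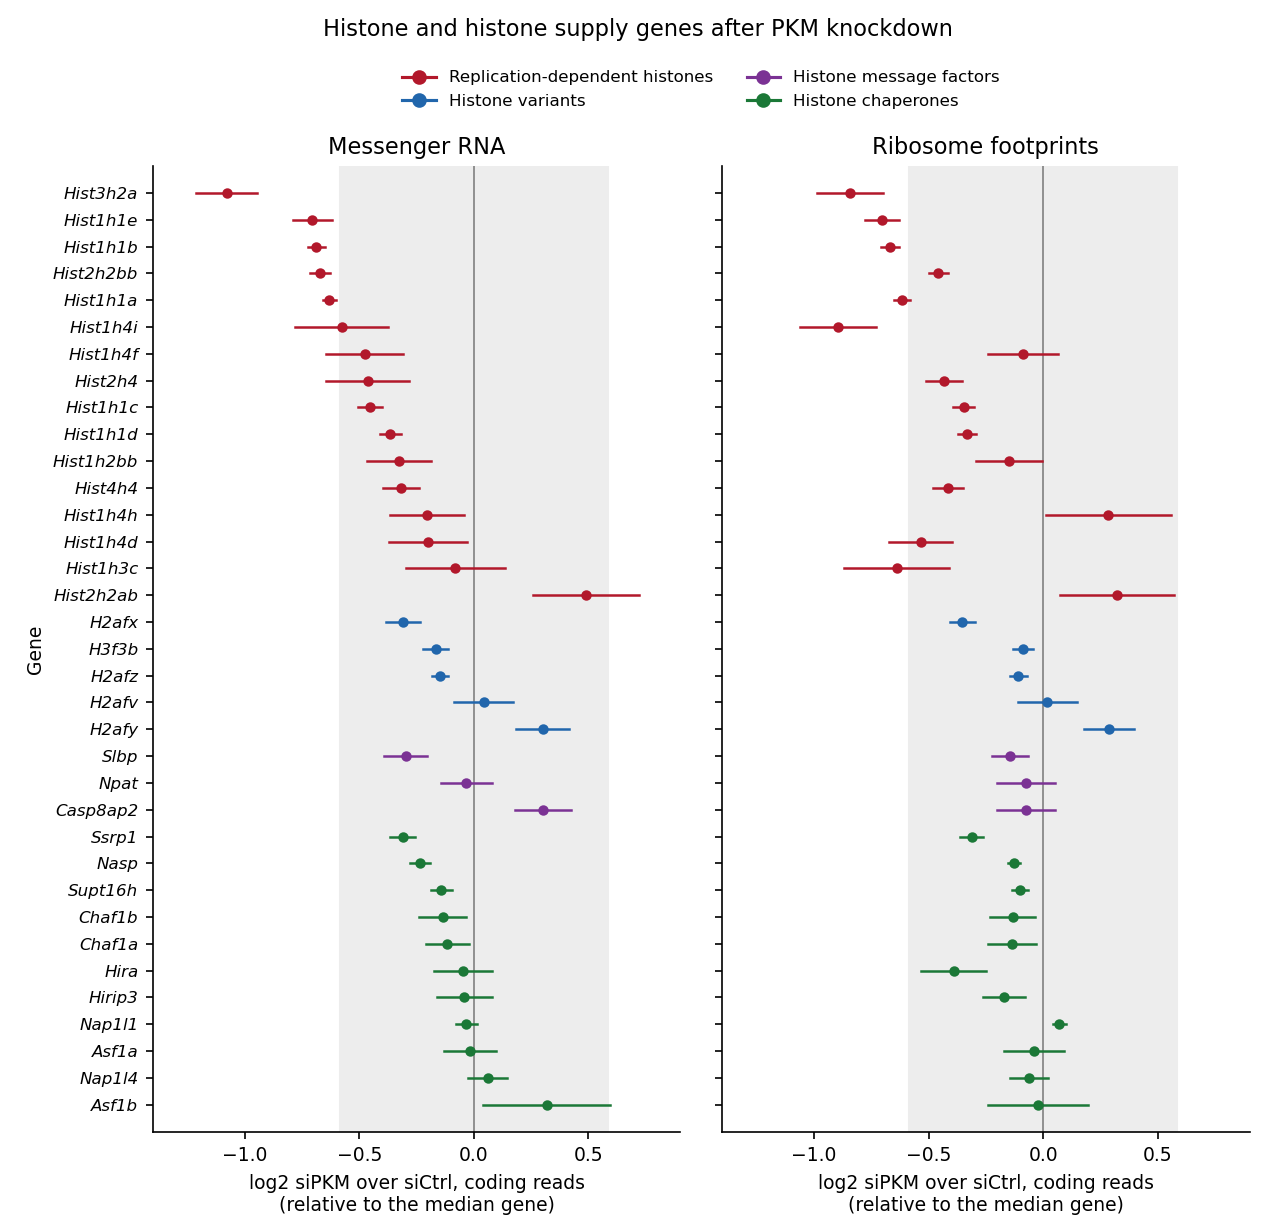
Each row is 1 gene, coloured by its role, and the x axis is the log2 ratio of siPKM over siCtrl coding reads relative to the median gene, in messenger RNA (left) and ribosome footprints (right). Points are single ratios from 1 library per siRNA, bars are 95% counting intervals and the grey band spans 1.5-fold either way: 5 replication-dependent genes lie left of it in RNA and 6 in footprints, and no variant, message factor or chaperone lies outside it.

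The 5 linker histone genes, whose products bind the DNA where it enters and leaves the nucleosome, were all lower in siPKM, with medians of -0.63 in RNA and -0.62 in RPF. Hist1h1a, which encodes H1.1, had 2064 CPM in siCtrl RNA and 1377 in siPKM RNA, and 1309 and 866 in RPF. Its ratios were -0.63 (interval -0.66 to -0.60) in RNA and -0.62 (-0.65 to -0.58) in RPF. Hist1h1b (H1.5) stood close to it, with 1288 and 826 CPM in RNA, 1069 and 683 in RPF, and ratios of -0.69 and -0.67. Hist1h1e (H1.4) had 259 and 164 CPM in RNA and 284 and 177 in RPF, and -0.70 was its ratio in each kind of library. For these 3 genes the siPKM value was below the siCtrl value by about the same ratio in RNA and RPF.

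The other pair of H1 genes lay nearer the median gene and did not reach 1.5-fold. Hist1h1c (H1.2) had 649 and 490 CPM in RNA and 626 and 500 in RPF, with ratios of -0.45 (-0.50 to -0.40) and -0.35 (-0.39 to -0.30). Hist1h1d (H1.3) had 785 and 630 CPM in RNA and 894 and 721 in RPF, with ratios of -0.36 (-0.41 to -0.32) and -0.33 (-0.37 to -0.29). By counting error alone, the RNA intervals of these 2 genes lay above those of Hist1h1a, Hist1h1b and Hist1h1e. Summed over the 5 genes, 61101 RNA reads in siCtrl and 36090 in siPKM gave a ratio of -0.58, and 63465 and 36967 RPF reads gave -0.53.

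The 130 bases upstream of the annotated starts of the 5 H1 genes are shown because these genes lay lower together. Whether promoter letters bear on the ratios was not tested. The sequences are from RefSeq (build GRCm38.p6), at chr13:23763538-23763667 (plus strand) for Hist1h1a, chr13:21780626-21780755 (minus strand) for Hist1h1b, chr13:23738677-23738806 (plus strand) for Hist1h1c, chr13:23554902-23555031 (plus strand) for Hist1h1d and chr13:23622559-23622688 (minus strand) for Hist1h1e, written 5' to 3' toward the gene. Capitals mark matches on either strand to 4 motifs. These are the H1 box, AAACACA, and the box CCAAT, which appears as ATTGG where it lies on the reverse strand. The others are the core of the TATA box, TATAAA, and the octamer, ATTTGCAT, which appears as ATGCAAAT where it lies on the reverse strand.
Hist1h1a: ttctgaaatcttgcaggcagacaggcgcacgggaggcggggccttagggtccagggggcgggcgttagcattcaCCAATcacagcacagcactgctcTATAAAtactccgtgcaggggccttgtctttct
Hist1h1b: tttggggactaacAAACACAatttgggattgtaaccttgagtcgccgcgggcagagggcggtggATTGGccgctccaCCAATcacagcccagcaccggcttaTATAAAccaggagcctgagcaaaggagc
Hist1h1c: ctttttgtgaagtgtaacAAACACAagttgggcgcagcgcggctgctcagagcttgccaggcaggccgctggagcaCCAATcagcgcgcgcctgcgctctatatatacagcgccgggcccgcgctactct
Hist1h1d: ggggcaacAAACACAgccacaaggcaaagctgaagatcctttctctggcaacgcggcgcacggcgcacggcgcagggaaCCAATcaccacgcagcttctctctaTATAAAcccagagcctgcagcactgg
Hist1h1e: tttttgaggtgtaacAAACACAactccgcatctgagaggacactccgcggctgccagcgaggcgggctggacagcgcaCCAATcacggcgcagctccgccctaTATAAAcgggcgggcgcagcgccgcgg
On the gene's strand, all 5 hold a CCAAT that begins between -56 (Hist1h1a) and -51 (Hist1h1d) from the start. TATAAA lies downstream of it in 4 of the 5, from -33 in Hist1h1a to -26 in Hist1h1d. Hist1h1c is the exception and has these letters nowhere in the 250 bases searched. AAACACA lies upstream of CCAAT in 4 of the 5, beginning between -122 (Hist1h1d) and -112 (Hist1h1c), and Hist1h1a has no copy in the 250 bases. A match describes the letters only and does not show binding.

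Over the 250 bases upstream, 32 of the 35 genes had an entry in the promoter table (Hist2h4, Nap1l4 and H2afx had none). CCAAT was found in 11 of 15 replication-dependent genes, 3 of 4 variants and 8 of 13 supply genes, against 34.5% of 27025 promoters of all genes. TATAAA was found in 9 of 15, 1 of 4 and 0 of 13, against 13.0% of all. Exact letters at any position and on either strand were counted. Among them were TATAAA copies that begin at -250 in Hist1h4f, at -137 in Hist1h4i and at -10 in Hist1h2bb. The octamer was in 3 of 15, 1 of 4 and 0 of 13, against 1.61%, and AAACACA was in 4 of 15, all H1 genes, 0 of 4 and 0 of 13, against 6.22%. None of the 4 motifs contains another. The octamer, an element known from H2B genes, was in both H2B promoters and in the H2A gene Hist3h2a, and the variant H3f3b also held it. These 4 promoters are shown because they place the octamer beside CCAAT in genes whose ratios differed, at chr13:23746604-23746733 (plus strand), chr3:96269570-96269699 (plus strand), chr11:58954555-58954684 (plus strand) and chr11:116024505-116024634 (minus strand) respectively.
Hist1h2bb: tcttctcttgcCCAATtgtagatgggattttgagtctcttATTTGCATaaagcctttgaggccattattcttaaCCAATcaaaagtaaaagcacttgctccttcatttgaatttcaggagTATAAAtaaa
Hist2h2bb: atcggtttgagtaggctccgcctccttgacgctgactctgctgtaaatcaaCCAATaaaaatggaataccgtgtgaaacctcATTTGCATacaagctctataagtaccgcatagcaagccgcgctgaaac
Hist3h2a: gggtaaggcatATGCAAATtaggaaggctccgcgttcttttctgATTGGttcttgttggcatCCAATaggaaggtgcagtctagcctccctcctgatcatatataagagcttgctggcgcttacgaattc
H3f3b: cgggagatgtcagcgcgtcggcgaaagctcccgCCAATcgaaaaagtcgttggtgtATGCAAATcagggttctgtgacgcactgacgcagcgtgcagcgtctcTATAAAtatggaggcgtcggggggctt
The octamer begins at -90 in Hist1h2bb, at -48 in Hist2h2bb, at -119 on the reverse strand in Hist3h2a and at -74 on the reverse strand in H3f3b. Of these genes, Hist3h2a and Hist2h2bb were past 1.5-fold lower in RNA, and Hist1h2bb and H3f3b were not.

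Among the 11 core histone genes the RNA ratios spread more widely than among the H1 genes, from -1.08 to 0.49, with a median of -0.33, and the RPF median was -0.43. Hist3h2a, an H2A gene on chromosome 11 outside the large cluster, had the lowest RNA ratio of the replication-dependent genes. It had 131 CPM in siCtrl RNA and 64 in siPKM RNA, from 1582 and 661 reads, and 82 and 46 CPM in RPF. Its ratios were -1.08 (-1.21 to -0.95) in RNA and -0.84 (-0.99 to -0.70) in RPF, so its RNA lay slightly over 2-fold below the median gene. Hist2h2ab, the other H2A gene, was the only replication-dependent gene above the median gene in RNA. It rests on few reads: 281 and 348 in RNA and 262 and 275 in RPF, or 23 and 34 CPM in RNA and 17 and 22 in RPF. Its ratios were 0.49 (0.26 to 0.72) in RNA and 0.32 (0.07 to 0.57) in RPF.

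Of the H2B genes, Hist2h2bb had 994 and 645 CPM in RNA and 814 and 602 in RPF, with ratios of -0.67 (-0.72 to -0.63) and -0.46 (-0.50 to -0.42). Its RPF ratio lay closer to the median gene than its RNA ratio, by 0.21 (0.15 to 0.27). Hist1h2bb had 83 and 69 CPM in RNA and 60 and 55 in RPF, with ratios of -0.33 (-0.47 to -0.19) and -0.15 (-0.30 to -0.01). Both H2B genes were thus below the median gene in each kind of library.

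The 6 H4 genes encode the same protein from different loci. They lay between -0.57 and -0.20 in RNA, with a median of -0.39, and between -0.89 and 0.28 in RPF, with a median of -0.42. Hist1h4i had the lowest RPF ratio of the replication-dependent genes: 975 and 440 reads, or 64 and 35 CPM, and a ratio of -0.89 (-1.06 to -0.73), beside 45 and 31 CPM in RNA and a ratio of -0.57 (-0.78 to -0.37). Hist2h4 was, with Hist1h1c, in the middle of the RNA ratios, with 52 and 39 CPM and a ratio of -0.46 (-0.65 to -0.28), and in RPF it had 228 and 171 CPM and a ratio of -0.43 (-0.51 to -0.35). Hist4h4 had 264 and 219 CPM in RNA and 311 and 237 in RPF, with ratios of -0.32 and -0.42. Summed over the 6 H4 genes, where a split of reads among these genes matters less, the ratios were -0.34 in RNA (-0.40 to -0.29) and -0.42 in RPF (-0.47 to -0.38). The part of reads shared with H4 copies that have no row was not tested. Sums over the 2 H2A genes gave -0.70 and -0.56, and sums over the 2 H2B genes gave -0.64 and -0.43. Hist1h3c, the only H3 gene of this kind in the table, had 392 and 327 RNA reads (ratio -0.08, -0.30 to 0.13) and 449 and 242 RPF reads (ratio -0.64, -0.87 to -0.41). Every histone type was therefore lower in siPKM in summed reads, and the RNA interval of H3 includes 0. H3 rests on Hist1h3c alone, whose ratios with all codons counted were -0.15 in RNA and -0.17 in RPF. The H2A sum is mostly Hist3h2a, and Hist2h2ab lay above the median gene.

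The lower reads were not limited to the body of the coding sequence. The files count reads in 5 regions of each transcript, and ratios were taken where both libraries had at least 30 reads, with the scaling of the CDS. The 0 is thus the median gene of the CDS, and the median gene of each region is not given here. In RNA, 10 genes had enough 5' UTR reads and all 10 lay below 0, with a median of -0.60. For the 3' UTR, 9 had enough reads and all 9 lay below 0, with a median of -0.59. The 5 variants also all lay below 0 in the 5' UTR in RNA (median -0.21), and 3 of 5 did in the 3' UTR (median -0.11). Over the first 15 codons, 13 of 14 genes lay below 0 in RNA (median -0.50) and 13 of 15 in RPF (median -0.39). Hist3h2a was the lowest in the 5' UTR, at -1.70 from 372 and 101 reads. Hist1h4i differed between regions, with 0.04 in RNA and 0.07 in RPF over the first 15 codons and -0.58 and -0.89 over the rest of the CDS. Its first 15 codons held 54 and 49 RNA reads and 311 and 273 RPF reads.

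**Figure D2:**
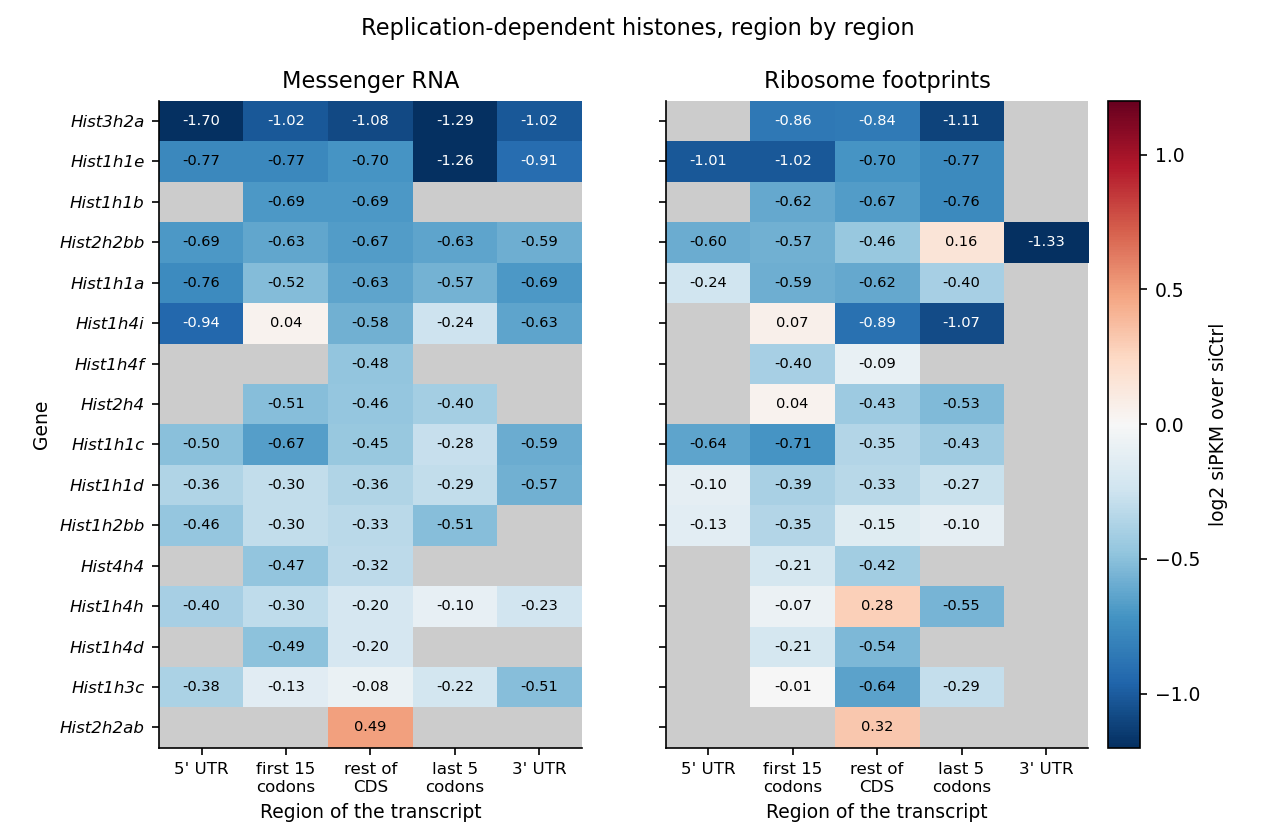
Rows are the 16 replication-dependent genes in the order of their RNA ratio, columns are the 5 regions of the transcript, and colour and number give the log2 ratio of siPKM over siCtrl reads in RNA (left) and footprints (right), scaled as for the CDS. Grey marks regions with under 30 reads in either library. Nearly all coloured RNA cells are blue, and the exceptions above 0 in RNA are Hist1h4i over the first 15 codons (0.04) and Hist2h2ab in the CDS (0.49).

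Translation efficiency (TE), the RPF ratio minus the RNA ratio, centred on the median gene, had a median of 0.02 over the replication-dependent genes, with single genes on both sides of it. 0 of the 16 were at least 1.5-fold lower in TE, against 0.827% of all genes, and 0 were at least 1.5-fold higher, against 0.184%. By those shares, counts of 0 are usual for a list of this size. The 5 H1 genes lay between -0.00 (Hist1h1e) and 0.10 (Hist1h1c). The core genes spread from -0.56 (-0.87 to -0.25) in Hist1h3c to 0.48 (0.18 to 0.79) in the H4 gene Hist1h4h. Hist1h4h had 60 and 54 CPM in RNA and 15 and 18 in RPF, from 226 and 231 RPF reads. Both ends of this range depended on leaving out the first 15 and last 5 codons. With these codons included, Hist1h3c had 1320 and 1052 RNA reads and 1902 and 1416 RPF reads, and its TE ratio was -0.03 (-0.18 to 0.12). Hist1h4h then had 2514 and 1920 RNA reads and 4633 and 3490 RPF reads and a TE ratio of 0.05 (-0.06 to 0.16), and its RPF ratio went from 0.28 to -0.15. The H4 gene Hist1h4d likewise went from -0.34 to -0.03. With all codons, TE ratios of the 16 genes ran from -0.25 (Hist1h4i) to 0.35 (Hist1h4f, 0.13 to 0.57), and 15 of the 16 lay below the median gene in RPF. Hist1h4f, an H4 gene with 744 and 472 RNA reads and 791 and 625 RPF reads, kept RNA and RPF ratios of -0.48 and -0.09 without those codons and -0.47 and -0.11 with them.

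The first 15 codons held a large part of the footprints of several histone genes in control cells. Of the reads on the first 15 codons and the rest of the CDS, the first 15 codons had a median of 24.6% in siCtrl RPF over the replication-dependent genes, 14.5% over the variants, 3.38% over the supply genes and 4.70% over all genes. Histone coding sequences are short, so the window is a larger part of them. 3 of the 16 genes had more RPF reads there than in the rest of the CDS, against 0.199% of all genes, a count chosen after the values were seen. These were Hist1h4h (93.5%), the H2B gene Hist1h2bb (83.0%) and the H3 gene Hist1h3c (72.7%). In siPKM RPF they had 91.9%, 80.9% and 80.4%. The RNA shares of these 3 genes were also high, at 58.0%, 70.4% and 54.1% in siCtrl, beside a median of 17.4% over the replication-dependent genes and 2.56% over all genes. The H4 genes share a length but ran from 0.93% (Hist1h4f, 7 reads on those codons) to 59.9% (Hist1h4d) in siCtrl RNA. How the authors placed reads that match several histone copies is not given in the sources used here, and its part in these shares was not tested.

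**Figure D3:**
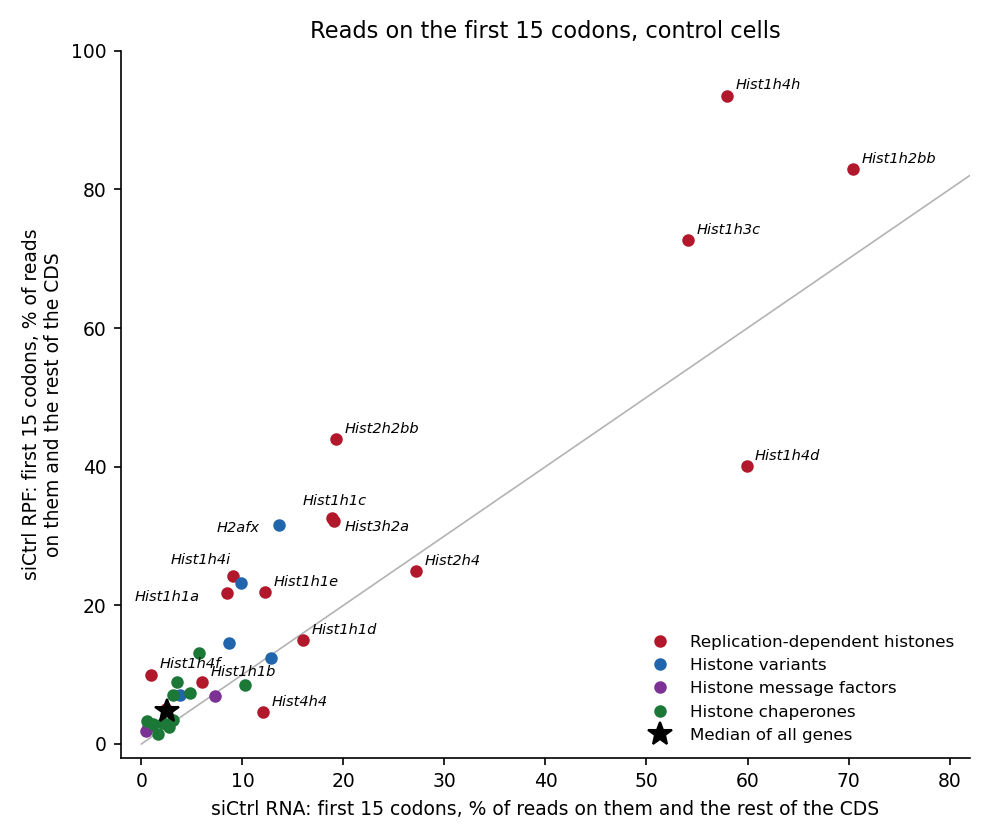
Each point is 1 gene in control cells, coloured by its role, with the percentage of coding reads that fall on the first 15 codons in RNA on the x axis and in footprints on the y axis, both leaving out the last 5 codons. The star is the median of all genes (2.56% and 4.70%) and the grey line marks equal shares: Hist1h4h, Hist1h2bb and Hist1h3c stand at the upper right, and the supply genes stand near the star.

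Baseline TE, the log2 of RPF over RNA in control cells relative to the median gene, had a median of -0.01 over the replication-dependent genes, 0.03 over the variants and 0.07 over the supply genes. 1 of the 16 was at least 2-fold above the median gene (Hist2h4, 2.30) against 10% of all genes, and 1 was at least 2-fold below it (Hist1h4h, -1.83) against 8.59%. Both were H4 genes, and in siPKM they had 2.30 and -1.37. With all codons counted, Hist2h4 had 2.27, but Hist1h4h had 0.68, and the median of the 16 genes was 0.31. Of the supply genes, Nasp (1.30) and Nap1l1 (1.19) were at least 2-fold above the median gene and none were 2-fold below it.

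Few reads of the replication-dependent genes fell in the 3' UTR. The share of a gene's siCtrl RNA reads that fell in its 3' UTR had a median of 6.91% over the 16 genes, 36.7% over the variants, 17.8% over the supply genes and 26.2% over all genes. 8 of the 16 had a share of at most 5%, against 9.66% of all genes. However, 6 of the 16 (Hist1h1b, Hist1h4d, Hist1h4f, Hist2h2ab, Hist2h4 and Hist4h4) had no UTR reads at all in either RNA library, as did 0.521% of all genes, and whether the authors' annotation gives these 6 a UTR is not stated in the sources used here. Among the 10 with UTR reads the median was 12.1%, from 0.516% in Hist1h2bb to 44.7% in Hist1h4i. The 3' UTR share of footprints in those 10 genes had a median of 0.113% in siCtrl and 0.175% in siPKM. H3f3b, whose message is polyadenylated, had 56.3% of its RNA reads and H2afz had 47.8% in the 3' UTR.

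The median ratio of the variants was -0.15 in RNA and -0.09 in RPF. 0 of 5 were at least 1.5-fold from the median gene, where the shares of all genes are 1.24% lower and 2.88% higher in RNA and 1.53% and 2.66% in RPF, so that a count of 0 is usual for a list of this size. H2afx, which encodes H2A.X, the form phosphorylated at DNA breaks, had 287 and 239 CPM in RNA and 430 and 342 in RPF. Its ratios of -0.31 (-0.38 to -0.23) and -0.35 (-0.41 to -0.30) were the lowest of the variants. The gene is known to make a stem-loop message as well as a polyadenylated one. H2afz, which encodes H2A.Z.1, a variant found around transcription starts, had 1178 and 1099 CPM in RNA and 821 and 773 in RPF, with ratios of -0.15 (-0.18 to -0.11) and -0.11 (-0.15 to -0.07). H3f3b, a gene for H3.3, had 512 and 471 CPM in RNA and 652 and 622 in RPF, with ratios of -0.17 (-0.22 to -0.11) and -0.09 (-0.13 to -0.05). H2afv, which encodes H2A.Z.2, had 84 and 90 CPM in RNA and 71 and 73 in RPF, with ratios of 0.04 and 0.02 and intervals that include 0. H2afy, which encodes macroH2A1, a variant with a large extra domain, was the only variant whose intervals lay above 0. It had 97 and 123 CPM in RNA and 88 and 109 in RPF, with ratios of 0.30 (0.19 to 0.42) and 0.29 (0.18 to 0.40). TE ratios of all 5 lay between -0.05 and 0.07.

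The 14 supply genes also had 0 members at least 1.5-fold from the median gene in RNA or RPF, again a usual count by those shares. Their medians were -0.05 and -0.11, and 11 of them lay below the median gene in RNA and 13 in RPF (50% of all genes in each). Of the message factors, Slbp had 183 and 154 CPM in RNA and 209 and 192 in RPF, with ratios of -0.30 (-0.39 to -0.20) and -0.14 (-0.22 to -0.07). Its TE ratio of 0.15 (0.03 to 0.27) was the highest of the supply genes. Npat had 117 and 118 CPM in RNA and 76 and 73 in RPF, with ratios of -0.03 and -0.07 and intervals that include 0. Casp8ap2 had 86 and 110 CPM in RNA but 76 and 73 in RPF, with ratios of 0.30 (0.18 to 0.42) and -0.07 (-0.20 to 0.05). Its TE ratio of -0.38 (-0.55 to -0.21) was the lowest of the supply genes. The RNA ratios of these 3 factors thus ran from -0.30 to 0.30.

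Of the chaperones that handle H3 and H4 in replication, Nasp, Chaf1a and Chaf1b lay below the median gene in RNA and RPF. Nasp, which keeps a store of soluble H3 and H4, had 829 and 728 CPM in RNA and 1803 and 1674 in RPF, with ratios of -0.23 (-0.28 to -0.19) and -0.13 (-0.16 to -0.10). Chaf1a and Chaf1b, subunits of the complex that loads H3 and H4 behind the fork, had 165 and 157, and 144 and 135 CPM in RNA. Their RNA ratios were -0.12 and -0.14 and their RPF ratios -0.14 and -0.13. Asf1a and Asf1b are the closely related proteins that hand H3 and H4 to those complexes. Asf1a had 110 and 112 CPM in RNA and 71 and 70 in RPF, with ratios of -0.02 and -0.04. Asf1b had 17 and 22 CPM in RNA and 25 and 25 in RPF, with ratios of 0.32 (0.04 to 0.59) and -0.02 (-0.24 to 0.19), from 210 and 231 RNA reads.

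Of the H3.3 pathway, Hira had 91.2 and 91.1 CPM in RNA and 67 and 52 in RPF. Its RPF ratio of -0.39 (-0.54 to -0.25) was the lowest of the supply genes, beside an RNA ratio of -0.05 and a TE ratio of -0.35 (-0.53 to -0.16). Hirip3, named for its binding to Hira, had ratios of -0.04 in RNA and -0.17 in RPF, with 101 and 102 CPM in RNA and 156 and 140 in RPF. The FACT subunits move nucleosomes aside for polymerases. Ssrp1 had 565 and 471 CPM in RNA and 543 and 444 in RPF, with ratios of -0.31 (-0.36 to -0.26) and -0.31 (-0.36 to -0.26), the lowest RNA ratio of the supply genes. Its partner Supt16h had 700 and 656 CPM in RNA and 1054 and 998 in RPF, with ratios of -0.14 (-0.19 to -0.10) and -0.10 (-0.14 to -0.07). The FACT subunits thus lay below the median gene in both kinds of library, with intervals that do not overlap each other. Nap1l1 had 662 and 669 CPM in RNA and 1339 and 1427 in RPF, with ratios of -0.03 and 0.07 (0.04 to 0.10), and Nap1l4 had 194 and 209 in RNA and 173 and 168 in RPF, with ratios of 0.06 and -0.06.

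Other genes of histone message handling, histone deposition and the cell cycle, from lists written for this comparison, had list medians between that of the replication-dependent histones and 0, with single genes on both sides. Of 24 processing and decay partners, 0 were at least 1.5-fold lower in RNA, against 1.24% of all genes, with a median of -0.12. At that share, a count of 0 is usual for lists of this size. Ncbp2, a cap-binding subunit, stood at -0.42 and Snrpe, an Sm protein, at -0.37, while the uridylyl transferase Zcchc11 stood at 0.38 and the cleavage scaffold Sympk at 0.28. RPF ratios of these genes were, in that order, -0.21, -0.05, -0.02 and 0.19. Of 30 other chaperones and variant depositors, 0 were at least 1.5-fold lower in RNA (1.24% of all genes), with a median of -0.06. Set and the ATPase Ruvbl1 each stood at -0.40, and the H3.3 depositors Ubn2 and Atrx at 0.43 and 0.41. RPF ratios were -0.31 for Set, -0.34 for Ruvbl1, 0.08 for Ubn2 and 0.13 for Atrx. Cenpa, the centromeric H3 variant, stood at -0.27 in RNA and -0.18 in RPF. In 31 S phase genes, 26 lay below the median gene in RNA (50% of all genes do). Their median was -0.17 (-0.09 in RPF), and 0 were at least 1.5-fold lower (1.24% of all genes). The DNA-binding Rpa1 (-0.48, and -0.37 in RPF) and the cyclin Ccne2 (-0.43 and -0.35) were the lowest of them in RNA. The replicative helicase factors Gins2 (0.52, and 0.39 in RPF) and Cdc45 (0.18 and 0.25) were the highest. In 19 genes of G2 and M phase, 15 lay below the median gene in RNA (50% of all), with a median of -0.11 (-0.10 in RPF). Their RNA range was from the mitotic regulators Plk1 (-0.50) and Cdc20 (-0.35) to the chromosome coat protein Mki67 (0.58) and the kinesin Cenpe (0.46). RPF ratios were -0.41 for Plk1, -0.34 for Cdc20, -0.02 for Mki67 and -0.13 for Cenpe. The share of cells in S phase was not measured, and its part in the histone ratios was not tested.

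**Figure D4:**
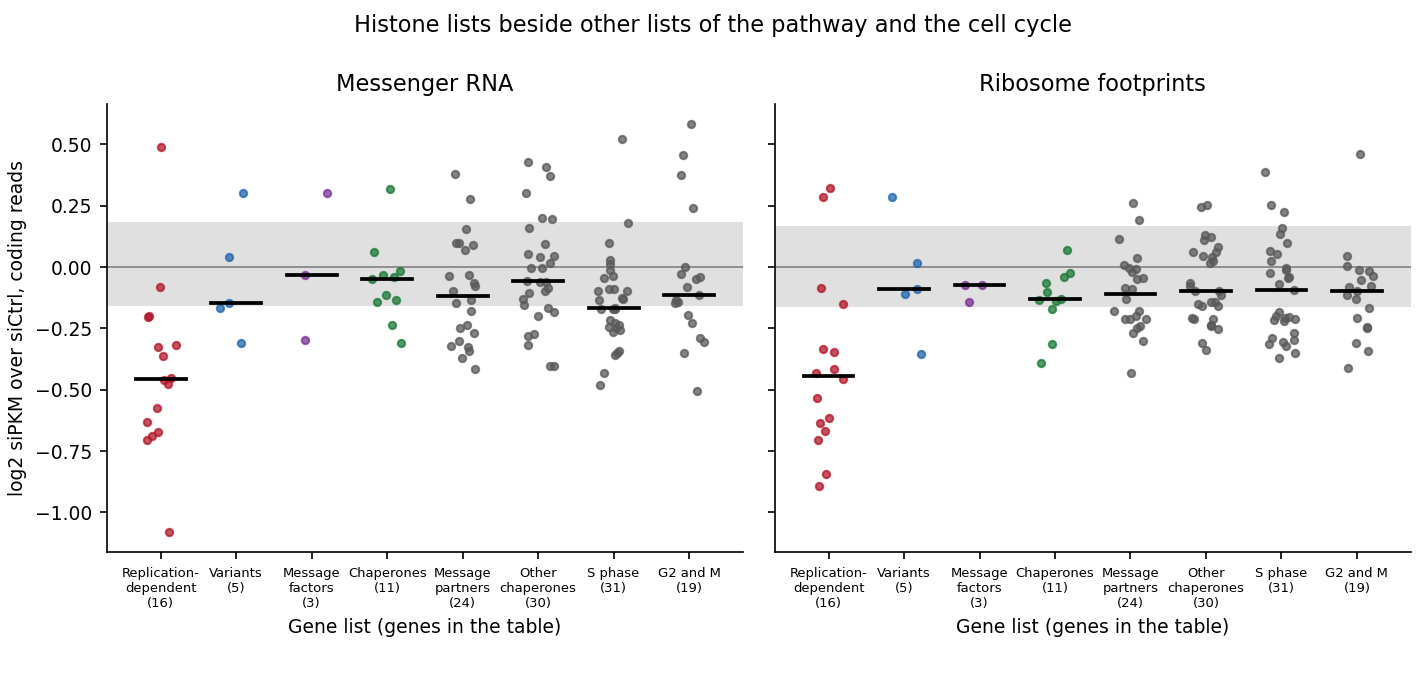
Each point is 1 gene, each column a gene list with its number of genes in the table, and the y axis is the log2 ratio of siPKM over siCtrl coding reads in RNA (left) and footprints (right), relative to the median gene. Short bars are list medians and the grey band is the interquartile range of all genes: the replication-dependent histones have medians of -0.46 and -0.45, and the S phase genes of -0.17 and -0.09.

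CLIP measured RNA bound by tagged PKM2, as reverse transcription stops next to crosslinked bases. The CPM of stops (mean of both replicates) were divided by the CPM of siCtrl RNA reads on the whole transcript, and the log2 is given relative to the median gene, with the SD over 2 replicates. The replication-dependent genes had a median of -1.70. 12 of the 16 were at least 2-fold below the median gene, against 21.5% of all genes, and 0 were at least 2-fold above it, against 25.2%. The 5 H1 genes ran from -2.93 ± 0.05 (SD, n = 2) in Hist1h1b to -1.75 ± 0.03 (SD, n = 2) in Hist1h1d. Hist1h1a, for example, had 190 and 180 stops in the 2 replicates, and Hist1h1b had 79 and 82. The genes above 0 were H4 genes without UTR reads: Hist1h4f at 0.82 ± 0.18 (SD, n = 2, 45 and 53 stops), Hist1h4d at 0.54 ± 0.06 (SD, n = 2, 87 and 91 stops) and Hist2h4 at 0.33 ± 0.25 (SD, n = 2, 48 and 37 stops). The other genes without UTR reads lay below 0: Hist1h1b, the H4 gene Hist4h4 (-1.81 ± 0.33, SD, n = 2) and Hist2h2ab (-0.97 ± 0.36, SD, n = 2). The summed share of stops on the 16 genes was 0.195% (exact 95% interval 0.184 to 0.206%) and 0.202% (0.192 to 0.213%), beside 0.685% of CDS reads in siCtrl RNA.

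The CLIP values depended on the divisor. With siCtrl reads on the CDS body as the divisor, 9 of the 16 genes were at least 2-fold below the median gene and 3 at least 2-fold above it. Of all 35 genes, 24 moved by more than their replicate SD, and a further 3 went from past 2-fold below to above 0. These 3 were the genes with most of their footprints on the first 15 codons: Hist1h2bb went from -1.65 to 0.17, Hist1h3c from -1.35 to 1.05 and Hist1h4h from -1.01 to 1.31. Among the others, Hist1h4i went from -1.21 to -0.09, Hist1h4f from 0.82 to 0.08 and H3f3b from -2.02 to -0.97. The H1 genes stayed between -3.60 (Hist1h1b) and -1.73 (Hist1h1d) with that divisor. No input or mock library is among the samples, so stops here include background.

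The variants had a CLIP median of -0.67, with 2 of 5 at least 2-fold below the median gene (21.5% of all genes). H2afz was the lowest of the 35 genes at -6.47 ± 1.05 (SD, n = 2), with 8 and 23 stops (11.8 and 34.3 CPM) beside 1987 CPM in siCtrl RNA. H2afx was the highest variant at 0.57 ± 0.03 (SD, n = 2), with 431 and 441 stops (636 and 658 CPM) beside 412 CPM. H3f3b stood at -2.02 ± 0.18 (SD, n = 2, 182 and 216 stops). Replicates of H2afz thus differed more than those of H2afx, though far less than the 2 genes differed from each other.

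The supply genes had a CLIP median of -0.49. 2 of 14 were at least 2-fold above the median gene (25.2% of all genes) and 4 at least 2-fold below it (21.5%), counts near those shares. Casp8ap2 (1.61 ± 0.16, SD, n = 2, 146 and 123 stops) and Npat (1.21 ± 0.13, SD, n = 2, 175 and 152 stops) were the high ones, and Hira (0.95 ± 0.12, SD, n = 2, 99 and 110 stops) came next. Slbp (-2.61 ± 0.51, SD, n = 2, 23 and 38 stops) and Nap1l1 (-2.36 ± 0.39, SD, n = 2, 89 and 60 stops) were the lowest, with Ssrp1 at -1.35 and Chaf1b at -1.09. The S phase genes had a median of -0.79, with 15 of 31 at least 2-fold below the median gene (21.5% of all genes). Low CLIP over RNA was therefore also frequent in that list.

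**Figure D5:**
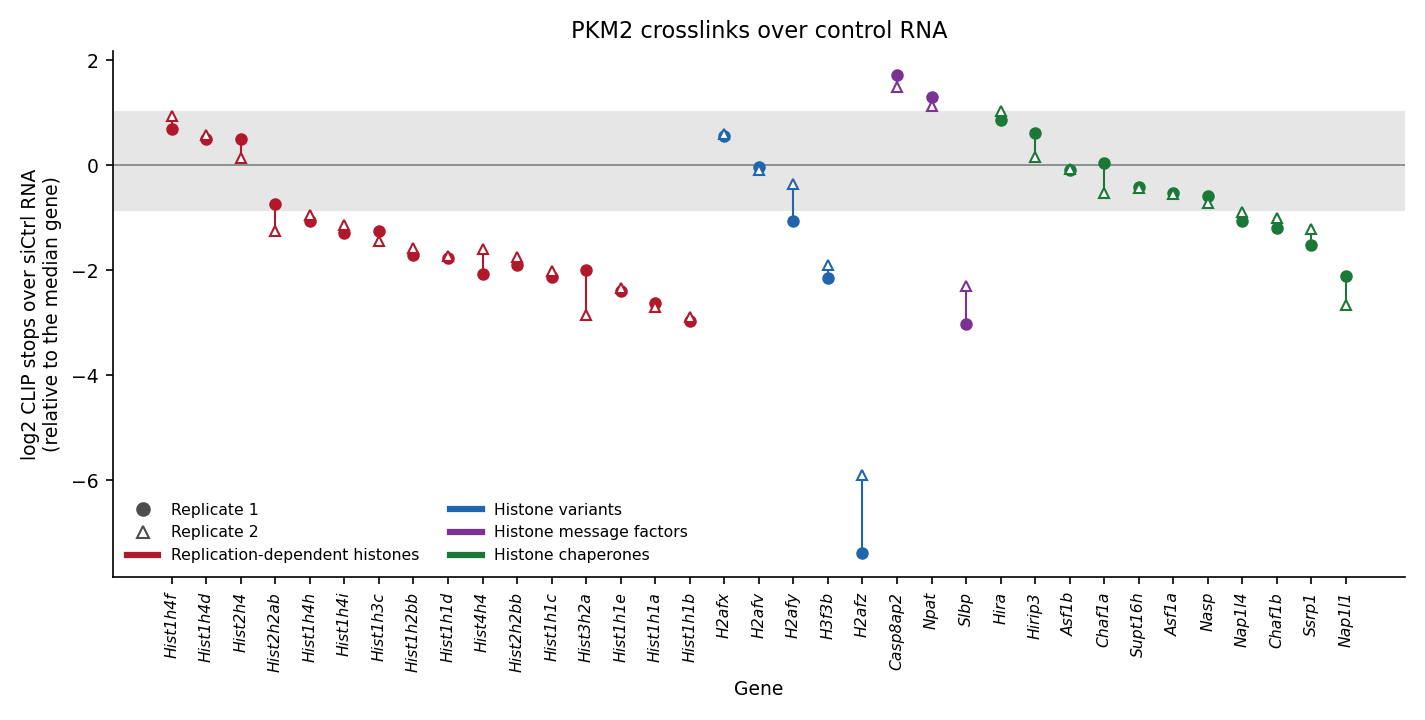
The y axis is log2 of CLIP stops over siCtrl RNA reads relative to the median gene, and each gene of the x axis has 1 marker for each of the 2 CLIP replicates, coloured by role, with the interquartile range of all genes in grey. By the mean of the replicates, the 5 H1 genes lie between -2.93 and -1.75, H2afz is the lowest gene, and Casp8ap2 and Npat are the highest.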

How the data were processed

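Messenger RNA, ribosome footprints and PKM2 CLIP stops in E14 cells were in 1 table of the whole series. Its columns hold raw counts of reads per transcript region and of reverse transcription stops, deposited by the authors, per the file headers. Their log2 RPM values, deposited beside the counts, served only as an alternative scaling. Reads were trimmed and aligned with cutadapt and Bowtie2 to mm9, per the submitters' processing notes. Versions, the counting tool, strand and the handling of reads with several matches are not given in the sources used here, so single genes among near-identical histone copies, and genes with antisense partners, are uncertain. The authors' mean CLIP enrichment (1 column) was left out.

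The table had 6535 rows, and no row had under 151 CDS reads in any of the 4 siRNA libraries, so genes below that are not analysed here. Keeping the row with most RNA reads where a symbol recurred left 6532 genes. RefSeq accessions of all 35 genes were matched to a GRCm38.p6 gene table, which gave another current symbol for 21. No mm9 coordinates are printed. Promoters came from a RefSeq table of GRCm38.p6.

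Before log2, 0.5 reads were added. Centring moved the median gene by 0.05 in RNA and 0.02 in RPF. Intervals were 95% exact Clopper-Pearson, on siPKM reads among siPKM and siCtrl reads for ratios, and from counting variances on the log scale for TE. They cover counting error only, since each siRNA has 1 library of each kind. PCR copies among the reads would make them too narrow. Genes 1.5-fold (ratios) or 2-fold (baseline TE, CLIP) from the median were counted, with no test. The SD of CLIP replicates may be technical, because the labels do not say whether they are separate cultures. Every histone and supply gene was to be described, the replication-dependent genes at the ends and middle of the RNA and TE ratios in full, and the 2 highest and 2 lowest of each other list. The genes and lists were chosen with earlier results of these data known. The ratios and intervals were checked on simulated counts that held counting error only. That check cannot speak to variation between cultures or to reads shared between gene copies. Alternatives were TMM scaling (edgeR 4.0.16, R 4.3.3), library sums alone, the authors' log2 values, 5 reads added, all codons, all reads on the transcript, a stricter floor on reads, summing genes of 1 histone type, siPKM libraries, other CLIP divisors, leaving out either CLIP replicate and leaving out 5' UTR reads. Python 3.11.15, numpy 2.4.6, pandas 2.3.3, scipy 1.17.1 and matplotlib 3.10.9 were used.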

Additional observations from a re-analysis of the deposited data

How the results depend on the processing

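Of 111 recomputed list medians and counts, 93 stayed within their counting error or replicate SD (counts within 1.5 times), and 18 moved. The sign changed in 8, all of medians within 0.07 of 0: 5 of baseline TE, 2 of TE ratios and 1 of the supply RNA ratio. With genes of 1 histone type summed, the replication-dependent medians over 5 types were -0.58 in RNA and -0.53 in RPF, and 2 types (1 in RPF) were at least 1.5-fold lower in place of 5 (6) genes, since fewer values are counted. The variant RNA median was -0.10 with library sums alone and -0.10 with the authors' deposited log2 values. With all codons, the replication-dependent baseline TE median was 0.31. With a stricter floor on reads, which left 5434 genes and 33 of the 35, the supply baseline TE median was -0.0068 and its CLIP median -0.40. The supply CLIP median was -0.65 with CDS reads as divisor, -0.59 with 5 counts added, -0.37 with siPKM RNA as divisor, and between -0.56 and -0.49 with either replicate left out. With siPKM RNA as divisor the replication-dependent CLIP median was -1.26. The 3' UTR share medians were 7.69% (replication-dependent) and 41.2% (variants) without 5' UTR reads, and 6.50% and 39.3% in the siPKM library. Of 867 single gene values, 749 stayed within that error, 115 moved beyond it and 3 more changed sign from past 2-fold. Among the 115 were 24 CLIP values with CDS reads as divisor and 22 with siPKM RNA as divisor. The sign changed in 31 values, which include those 3: with CDS reads as CLIP divisor, Hist1h2bb was at 0.17, Hist1h3c at 1.05 and Hist1h4h at 1.31. The cause of these shifts was not tested. No paired analysis was possible because each siRNA group has 1 library of each kind and the CLIP replicates have no second group. Low counts limit Hist2h2ab, Hist1h3c, Hist1h4h RPF and H2afz CLIP.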
